A study of Oryza sativa with 6 samples.

Results

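The probe sets described here read lower in rice seedlings given the auxin indole-3-acetic acid (IAA) and higher in seedlings given the cytokinin benzyl aminopurine (BAP), each set against the same solvent control. They were chosen from the measured values. A member had a mean log2 value at least 0.4 below the control with IAA and at least 0.4 above it with BAP. Both IAA arrays had to lie under both control arrays, and both BAP arrays over both. Of 57194 target probe sets on the array, 34256 were bright enough for the rule, with a mean log2 value of at least 4.7 over the 6 arrays, and 109 of these met it. Response regulator (RR) genes are textbook targets of cytokinin, and the 2 probe sets of genes with an RR symbol, RR4 and RR9, were left out by the rule. This left 107 members, whose shifts in both directions are therefore a description and carry no test.

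The seedlings were of the indica rice variety IR64, 7 days old, grown in light and used whole. Control seedlings received the solvent dimethyl sulfoxide at 0.1%, and the treated groups received 50 µM IAA or 50 µM BAP. Tissue from 1 h and 3 h of treatment was mixed in equal parts in all groups, so a member's early and later response were not separated. There were 2 arrays per group, 1 Affymetrix rice array for each replicate, and the submitters' design text calls the replicates biological.

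Auxin and cytokinin are plant hormones that oppose each other in many settings, such as root branching and shoot outgrowth. Auxin acts by removing Aux/IAA repressors from auxin response factors, and cytokinin acts through histidine kinase receptors and a phosphate relay that ends in type-B response regulators, which are transcription factors. Their direct targets include the type-A response regulators, which dampen the relay. Seedlings also control the amount of active cytokinin: LOG enzymes release it from its nucleotide form, and cytokinin dehydrogenases (CKX) break it down.

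The median deposited intensity lay between 16.6 and 23.1 on the 6 arrays. Replicate arrays correlated across probe sets at r = 0.983 to 0.988, and BAP array 1 correlated at r = 0.985 and 0.984 with the control arrays. Control and IAA arrays were run on 1 day and both BAP arrays on another, so the effect of BAP and that of run day cannot be told apart. The control arrays occupied fluidics modules 1 and 2, and the hormone arrays modules 3 and 4, so module cannot be told apart from either hormone. No run day held both BAP and control arrays, so no value within a day exists for BAP. Only 2 arrays per group limit the precision of every value below.

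Among all tested probe sets, 6.70% met the IAA criterion and 5.19% the BAP criterion. Both criteria were met by 0.318%, RR4 and RR9 included. The 109 probe sets were 4.75% of those lowered by IAA, close to the 5.19% of all probe sets that were raised by BAP. They were 6.13% of those raised by BAP, against the 6.70% lowered by IAA among all. Either way the share was near that of the whole table, and both criteria use the same control arrays.

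**Figure D1:**
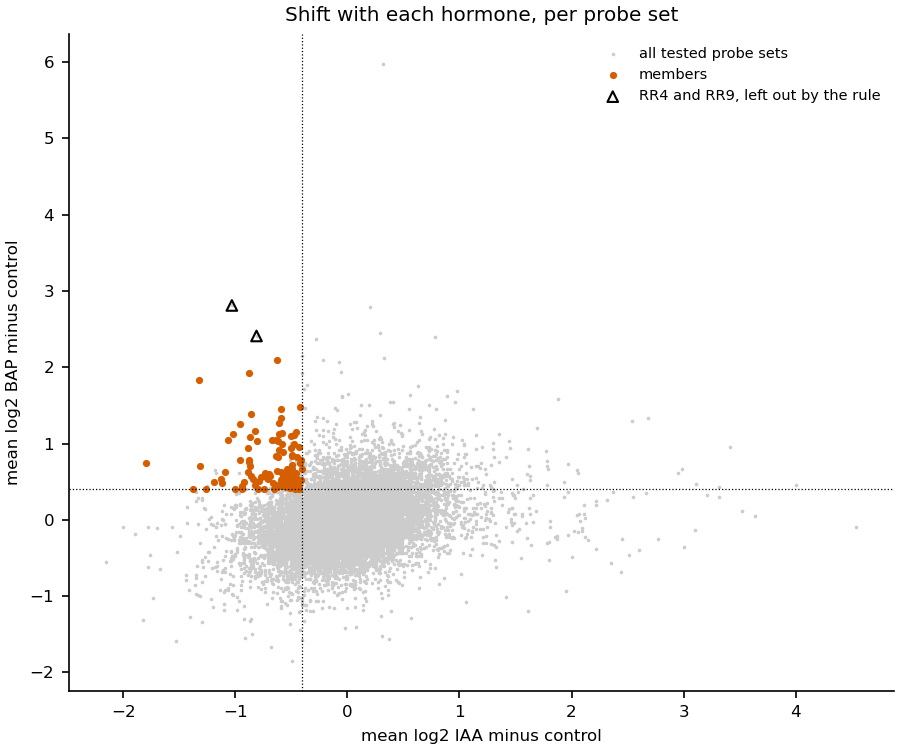
The 34256 tested probe sets are placed by mean log2 IAA minus control (horizontal) and mean log2 BAP minus control (vertical), both rounded. A grey point can stand for several probe sets with the same rounded values. Dotted lines mark the thresholds of -0.4 and 0.4. The 107 members (orange) lie in the upper left, most of them close to the lines, and RR4 and RR9 (triangles) sit above all of them.

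On the log2 scale, members ran from -1.80 to -0.40 with IAA (median -0.61) and from 0.40 to 2.10 with BAP (median 0.61), relative to the control, where the median over all tested probe sets was -0.01 in both comparisons. The distance between the hormones ran from 0.83 to 3.15, with a median of 1.33. On the scale of intensity plus 16, BAP over IAA was 1.78-fold to 8.85-fold, with a median of 2.52-fold and at least 4-fold in 10 members. Large shifts in both directions were rare. A BAP shift of at least 1 was seen in 23 members and an IAA shift of at least 1 in 12, but both in only 3: LOC4341925, LOC4350138 and the probe set Os.27497.1.S1_at. The BAP shift was the larger in 52 members and the IAA shift in 55. Many members lay near the thresholds, with the smaller shift under 0.5 in 51 of the 107.

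Of the 107 members, 75 matched 1 gene each in the annotation, and these were 73 genes. The other 32 were not listed with a gene and are given by probe set ID. A gene symbol was available for 9 members, which was 12% of the single-gene members against 13.7% of single-gene probe sets tested. The remaining 66 carried a locus number only, with no product named in the tables used here. The 9 symbols were CKX3, LOGL6, EXPB7, EXPA8, CIN1, BGLU12, PHT1-3, PUT1 and GRXC10.

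Opposite steps of cytokinin turnover were represented, removal by CKX3 and activation by LOGL6. CKX3 (LOC4348932), a cytokinin dehydrogenase gene, read 37.9 and 49.9 on the control arrays, 29.3 and 18.7 with IAA, and 147 and 146 with BAP. Its mean intensity was 43.9 ± 8.45 in the control, 24.0 ± 7.51 with IAA and 146 ± 0.616 with BAP (SD, n = 2 arrays each, as for all means below), a log2 shift of -0.59 and 1.45. The BAP arrays agreed closely and stood well clear of the control, whereas the higher IAA array lay just under the lower control array. LOGL6 (LOC4336417), of the LOG family, read 28.6 and 22.1 in the control, 3.11 and 2.71 with IAA, and 53.4 and 35.2 with BAP. Both IAA arrays lay under the floor of 9.99, so the size of the LOGL6 fall is set by the pseudocount: it was -1.13 on the log2 scale used here, -2.75 with a pseudocount of 1 and -0.42 with one of 64. The BAP shift of LOGL6 was 0.53. LOGL6 was a dim probe set, and 5 members in all, LOGL6 among them, read under an intensity of 10 on both IAA arrays. At such levels the pseudocount of 16 makes up most of the value and the log2 scale understates a change.

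The relatives of these genes did not share the full pattern. All 4 measured cytokinin dehydrogenase genes met the BAP criterion, and only CKX3 met the IAA criterion as well (5.19% and 6.70% among all tested probe sets). In limma, a linear model fitted over all tested probe sets with Benjamini-Hochberg adjustment, 3 of the 4 rose with BAP, CKX3 among them, against a background of 0.210% of tested probe sets higher with BAP. CKX4 read 156 and 193 in the control, 426 and 370.1 with IAA, and 477 and 527 with BAP. It therefore rose with both hormones, by 1.12 on the log2 scale with IAA (SE 0.15, limma adjusted p = 0.00989) and by 1.45 with BAP (SE 0.15, limma adjusted p = 0.00801). CKX5 rose with BAP by 1.94 (SE 0.22, limma adjusted p = 0.0103) and stood at -0.06 with IAA, where its arrays of 133 and 75.8 lay on either side of the control arrays. These calls depended on single arrays: without control array 1, the limma adjusted p was 0.116 for CKX4 with IAA, 0.0833 for CKX4 with BAP and 0.0885 for CKX5. Without BAP array 2 it was 0.0764 for CKX4 and 0.0861 for CKX5, without IAA array 1 it was 0.0868 for CKX4, and CKX5 also lost its call without control array 2 (0.0626) or BAP array 1 (0.0967). CKX3 lost its BAP call with any 1 of the control and BAP arrays left out (limma adjusted p = 0.103 to 0.22). CKX11 read 0.43 with BAP, which met the BAP criterion, and -0.14 with IAA. Neither was called in limma (limma adjusted p = 0.519 and 0.82). The calls of CKX3, CKX4 and CKX5 were also lost with dim probe sets kept (limma adjusted p = 0.0505 to 0.242). With a constant prior spread they were lost as well (0.0806 to 0.146), and that of CKX3 also with a pseudocount of 1 (0.0651).

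Of 8 measured LOG genes, 6 had a log2 value above 0 with IAA, with a median of 0.44 against -0.01 over all tested probe sets. LOGL3 rose with IAA by 1.80 (SE 0.22, limma adjusted p = 0.00661), from 331 and 455 in the control to 1755 and 1099.7, and read 318 and 312 with BAP. With the settings used here it was the 1 LOG gene called in either comparison, against a background of 0.633% of tested probe sets called higher with IAA. That count depends on the settings. LOGL3 missed the threshold with dim probe sets kept (limma adjusted p = 0.0712) or a constant prior spread (0.0803). LOG was called with IAA without rescaling between arrays (limma adjusted p = 0.0324), without IAA array 2 (0.0258) and with the replicate block (0.0432), and LOGL6 was called lower with IAA without rescaling (0.0221) and with a pseudocount of 1 (0.0468). The IAA arrays of LOGL3 lay above its control arrays. Those of LOGL6 lay under its control arrays, as the rule required, and LOGL6 was not called with the settings used here (limma adjusted p = 0.0896).

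Members with a role in the cell wall and in sugar supply were 2 expansin genes, an invertase gene and a beta-glucosidase gene. EXPB7 (LOC4331300), a beta-expansin gene, encodes a protein of the family that loosens cell walls during growth. It read 1099 and 954 in the control, 517 and 646 with IAA, and 1816 and 2456 with BAP. Its log2 shifts were -0.81 and 1.03, and the BAP arrays lay farther from each other than the control arrays did. EXPA8 (LOC4327217), an alpha-expansin gene, read 278 and 294 in the control, 201 and 171 with IAA, and 419 and 428 with BAP. Its log2 shifts were nearly equal in size, -0.58 and 0.54, and the arrays of each group lay close together.

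Among the 25 measured expansin genes, EXPB7 and EXPA8 were the only ones to meet both criteria, while 5 met the IAA criterion and 7 the BAP criterion (6.70% and 5.19% among all tested probe sets). The median log2 value of the family was -0.01 with IAA and 0.19 with BAP. In limma, 1 rose and 0 fell with IAA, and 2 rose and 0 fell with BAP, where 0.633% and 0.219% of tested probe sets were called higher and lower with IAA, and 0.210% and 0.0642% with BAP. EXPB7 was not called with either hormone (limma adjusted p = 0.0707 with IAA and 0.0513 with BAP). Without rescaling between arrays, EXPB7 was called lower with IAA (limma adjusted p = 0.0216) and higher with BAP (0.00325), so these counts depend on the scaling. EXPB11 rose with both hormones, from 1151 on both control arrays to 2192 and 2047 with IAA and to 2330.2 and 2728 with BAP (log2 0.87, SE 0.11, limma adjusted p = 0.00661, and 1.12, SE 0.11, limma adjusted p = 0.00536). EXPA2 rose with BAP by 1.27 (SE 0.12, limma adjusted p = 0.00536) and read 0.42 with IAA (limma adjusted p = 0.21). Both genes had IAA arrays above the control arrays, on the other side from EXPB7 and EXPA8, which the rule placed below. EXPB11 and EXPA2 lost their calls with dim probe sets kept (limma adjusted p = 0.0505 to 0.0543) or a constant prior spread (0.11 to 0.146). EXPB11 lost its calls without control array 1 (limma adjusted p = 0.0797 with IAA and 0.0701 with BAP) or control array 2 (0.056 and 0.0548), and that with IAA also without IAA array 1 (0.0645). EXPA2 lost its call without control array 2 (0.0564) or BAP array 2 (0.0625).

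CIN1 (LOC4329561) encodes a cell wall invertase, an enzyme that splits sucrose outside the cell. It read 1721 and 2034 in the control, 1332 and 1308 with IAA, and 3868 and 4181 with BAP, with log2 shifts of -0.50 and 1.10. The BAP arrays were 2.14-fold over the control on the scale of intensity plus 16, and the control arrays differed from each other more than the IAA arrays did. Its 4 measured relatives CIN2, CIN3, CIN4 and CIN7 ran from -0.32 to 0.15 with IAA and from -0.06 to 0.15 with BAP, and none of these 4 was called in limma. BGLU12 (LOC4336145), of the beta-glucosidase family of enzymes that release sugar from glucosides, read 96.1 and 99.4 in the control, 74.7 and 61.5 with IAA, and 142 on both BAP arrays. Its shifts of -0.44 and 0.47 were among the smaller ones. Another probe set of the same gene read 2589 and 2733 in the control, 2471 and 2726 with IAA, and 3492 and 3791 with BAP. There the BAP shift, at 0.45, was like that of the member, but the IAA shift was -0.04 and the IAA and control arrays overlapped. Of 26 measured beta-glucosidase genes, each taken at its brightest probe set, 0 met both criteria and 0 were called with BAP in limma. With IAA 1 fell, BGLU26 (log2 -0.91, SE 0.14, limma adjusted p = 0.019), where 0.219% of tested probe sets were called lower. BGLU26, named after its values were seen, lost that call with any 1 of the control and IAA arrays left out (limma adjusted p = 0.0848 to 0.166).

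A pair of members encode transporters. PHT1-3 (LOC4348740), of the PHT1 family of phosphate transporters, read 27.4 and 19.4 in the control, 4.58 and 11.5 with IAA, and 37.5 and 45.5 with BAP. Its log2 shifts were -0.72 and 0.55, in groups that the rule required not to overlap. Another probe set of PHT1-3, however, read 79.3 and 69.8 in the control, 70.7 and 56.4 with IAA, and 45.7 and 59.5 with BAP, so its BAP arrays lay under the control (log2 -0.41). These 2 probe sets of the gene thus lay on opposite sides of the control with BAP, and the remaining one was under the brightness floor. The member and the probe set set against it both carry a suffix for probes that can match several sequences. Their signal may be that of more than 1 gene. None of the 6 measured PHT1 genes, at their brightest probe sets, was called in limma with either hormone. PUT1 (LOC4330433), which encodes a polyamine uptake transporter, read 84.8 and 98.5 in the control, 64.6 and 66.0 with IAA, and 165 and 143 with BAP. With an IAA shift of -0.403 it was the member nearest to the IAA threshold, and its BAP shift was 0.66.

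GRXC10 (LOC4351046), of the glutaredoxin family, whose members reduce disulfide bonds with glutathione or bind iron-sulfur clusters, read 206 and 178 in the control, 86.2 and 109 with IAA, and 381 and 295 with BAP. Its mean went from 192 ± 19.9 in the control to 97.4 ± 15.9 with IAA and 338 ± 60.3 with BAP, with log2 shifts of -0.88 and 0.76. Of 18 measured glutaredoxin genes, GRXC10 was the 1 that met both criteria, and the family median was -0.02 with either hormone. In limma, 3 rose and 0 fell with IAA, against backgrounds of 0.633% higher and 0.219% lower, and 0 were called with BAP. GRXC10 was not called with either hormone (limma adjusted p = 0.0672 with IAA and 0.181 with BAP). Without rescaling between arrays it was called lower with IAA (limma adjusted p = 0.0131). The 3 that rose, named after their values were seen, were GRXC3 (log2 1.59, SE 0.18, limma adjusted p = 0.00491), GRXS5 (0.70, SE 0.096, limma adjusted p = 0.0121) and GRXC7 (0.74, SE 0.12, limma adjusted p = 0.0284). Without rescaling between arrays, GRXS5 and GRXC7 were not called (limma adjusted p = 0.078 and 0.102). GRXC7 was not called with arrays centred on their medians either (0.0595). GRXC3 lost its call without IAA array 1 (limma adjusted p = 0.0552). GRXS5 lost it without either control array or IAA array 1 (limma adjusted p = 0.0776 to 0.182), and GRXC7 with any 1 of the control and IAA arrays left out (limma adjusted p = 0.108 to 0.297). GRXC7 read -0.63 with BAP, which put its log2 values on the opposite side of 0 to those of GRXC10 with both hormones.

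**Figure D2:**
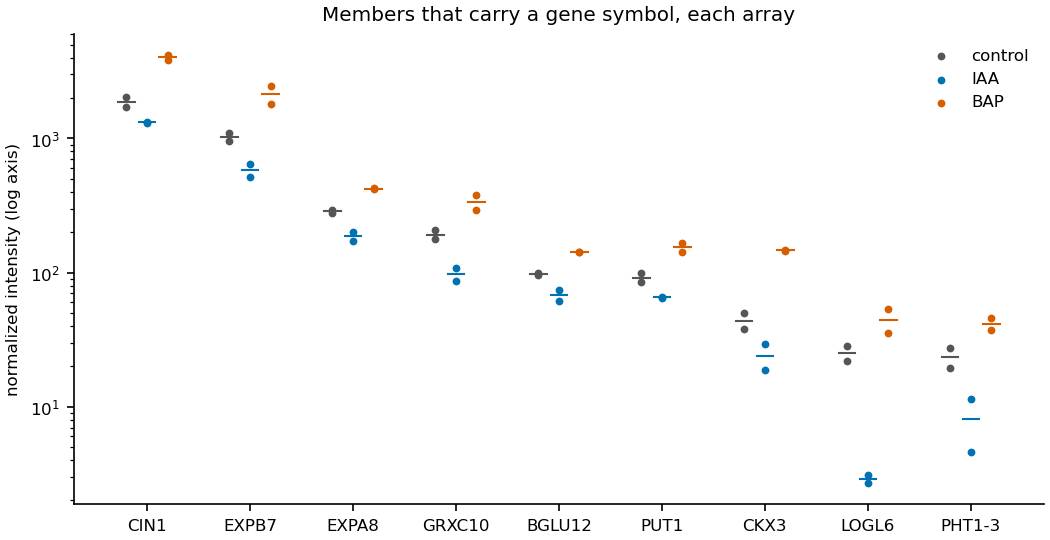
Normalized intensity (log axis) of the 9 members with a gene symbol, 1 point per array and a bar at the mean of the 2 arrays of each group (control grey, IAA blue, BAP orange). In each gene the IAA points lie below and the BAP points above the control points, as the rule required. The IAA points of LOGL6, at 3.11 and 2.71, lie under the floor of 9.99.

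**Figure D3:**
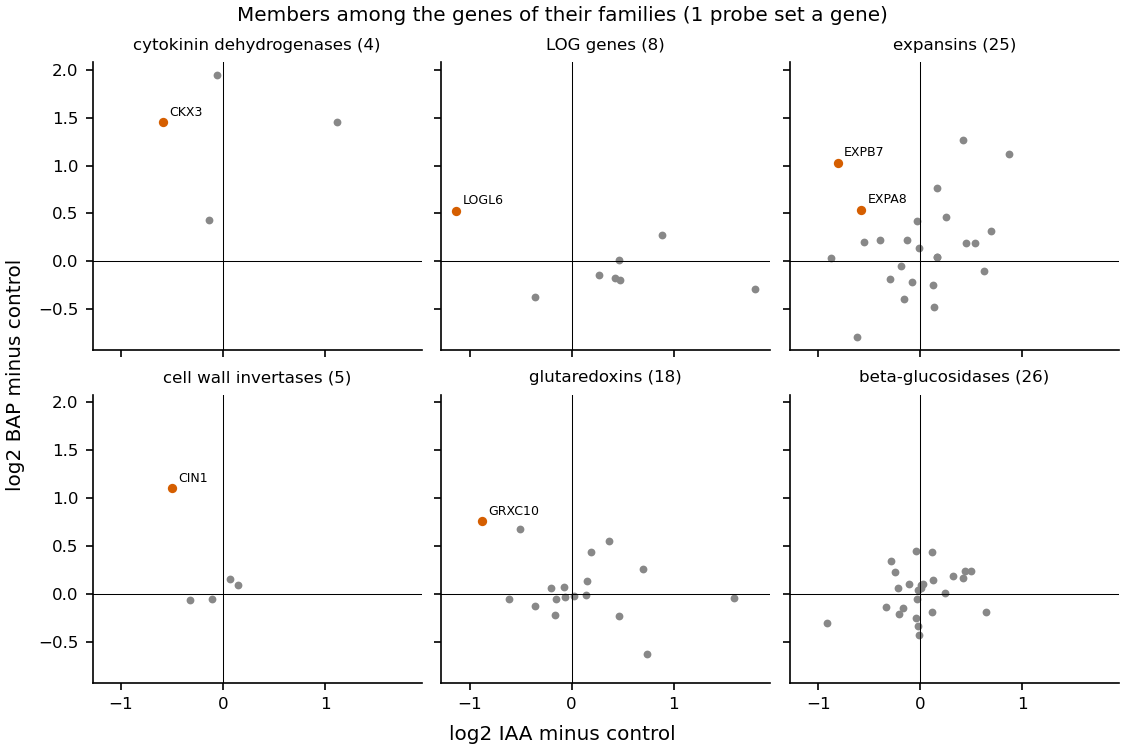
Log2 IAA minus control (horizontal) against log2 BAP minus control (vertical) for the measured genes of 6 families, 1 point per gene at its brightest probe set, with members in orange and the number of genes in each title. The orange points lie in the upper left of their panels, CKX4 stands at 1.12 and 1.45, and the beta-glucosidase panel has no orange point because the brighter BGLU12 probe set was not a member.

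The 15 members with the largest value of the smaller shift were mostly without a symbol, with EXPB7 and GRXC10 the exceptions. LOC4341925 led them, at 133 and 201 in the control, 36.1 and 83.5 with IAA, and 583 and 661 with BAP, or 167 ± 48.2, 59.8 ± 33.5 and 622 ± 55.5 as means. Its log2 shifts were -1.32 and 1.83, and its ratio of BAP to IAA, 8.85-fold on the scale of intensity plus 16, was the highest among the members. Both the control arrays and the IAA arrays of this probe set lay apart from each other, but the 3 groups did not overlap, as the rule required. LOC4350138 was nearly even in both directions, at 221 and 212 in the control, 104 and 87.1 with IAA, and 462 and 463 with BAP, which gave shifts of -1.06 and 1.04. LOC4339516 read 448 and 449 in the control, 215 and 261 with IAA, and 1766 and 1714 with BAP, with shifts of -0.88 and 1.92. LOC4348669 read 126 and 145, then 68.6 and 65.8, then 355 and 404 in the same order, with shifts of -0.86 and 1.39. In these last 3 loci replicate arrays lay close together in every group, against distances between groups of at least 0.8 on the log2 scale.

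Among the next loci, LOC4346144 read 189.8 and 229 in the control, 106 and 117 with IAA, and 531 and 448 with BAP (log2 shifts -0.82 and 1.17). LOC4336400 read 102 and 125, then 67.4 and 43.7, then 235 and 282 (-0.87 and 1.09), and LOC4337689 read 117 and 114, then 65.4 and 39.8, then 224 and 199 (-0.96 and 0.79). Both had a wider gap between the IAA arrays than LOC4346144. LOC4331231 read 52.0 and 60.4 in the control, 28.1 and 18.2 with IAA, and 117 and 128 with BAP, with shifts of -0.89 and 0.94. Its probe set carries a suffix for probes that can match several sequences, as did 17 of the 107 members (15.9%, against 20.7% of the tested probe sets), so its signal may be that of more than 1 gene.

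Most of the leading members with no gene listed varied widely between the IAA arrays. Os.6764.1.S1_at had the largest fall with IAA of any member, from 858 and 872 in the control to 133 and 416, and read 1458 and 1479 with BAP. Its shifts were -1.80 and 0.75, and its IAA arrays, at 7.22 and 8.75 on the log2 scale, lay farther apart than control and BAP did. Os.27497.1.S1_at read 35.6 and 32.2 in the control, 15.9 and 2.91 with IAA, and 73.6 and 117 with BAP. OsAffx.22035.1.S1_x_at read 32.5 and 34.5, then 18.5 and 2.71, then 89.5 and 117, and OsAffx.11437.1.S1_at read 25.3 and 29.6, then 11.4 and 4.23, then 59.1 and 59.2. In all 3 of these dim probe sets IAA array 2 was the lowest array. OsAffx.2974.1.S1_s_at read 106 and 58.2 in the control, 24.2 and 20.5 with IAA, and 174 and 112 with BAP. Its BAP array 2 was only just above control array 1, and it was the 1 probe set of the 15 that failed the rule when some single array was left out, and also without rescaling between arrays.

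**Figure D4:**
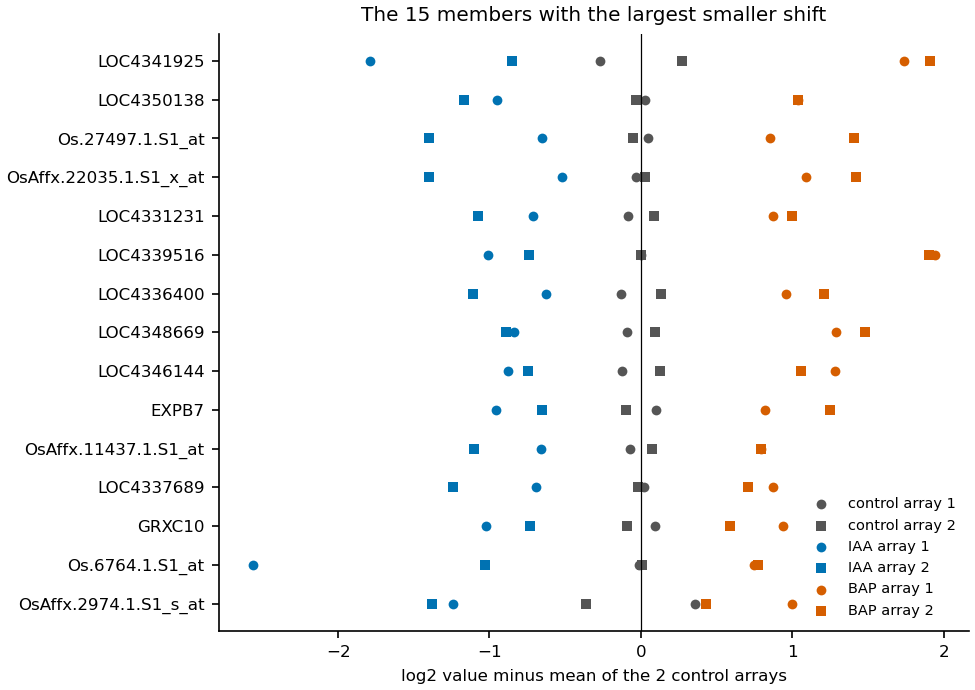
Log2 value minus the mean of the 2 control arrays (horizontal) for each array of the 15 members with the largest smaller shift, sorted from the top, with circles for replicate 1 and squares for replicate 2. All IAA points (blue) lie left of the control points (grey) and all BAP points (orange) to the right, and the widest gap between replicates is that of Os.6764.1.S1_at with IAA.

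Some members were large in 1 direction and small in the other, and the following were singled out after their values were seen. LOC4349585 had the highest BAP shift of all members, from 104 and 96.3 in the control to 578 and 399 (log2 2.10), and read 45.9 and 75.1 with IAA (-0.63). LOC4334841 read 280.3 and 256 in the control, 98.4 and 106 with IAA, and 318 and 411 with BAP, so a fall of 1.26 stood beside a BAP shift of 0.41. LOC9266117 likewise read 51.5 and 57.9, then 20.5 and 4.13, then 92.4 and 64.4 (-1.38 and 0.40). The last 2 did not meet the rule without rescaling between arrays or with arrays centred on their medians.

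The thresholds passed through a dense part of the distribution. Just inside the IAA threshold lay PUT1 at -0.403 and the dim LOC4339062 at -0.413. Just outside it, at -0.40 after rounding, lay LOC4327572, with a BAP shift of 0.449, and LOC4329972, which stood 2.151 above the control with BAP, more than any member. At the BAP threshold, LOC4347346 and LOC4344496 lay inside at 0.401, and Os.12289.1.S1_at (0.397) and Os.2965.1.S1_at (0.395) outside. Membership of such probe sets is a matter of the threshold chosen: at 0.3 the rule kept 196 probe sets, and at 0.5 it kept 56.

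RR4 and RR9, which met the rule and were left out for their symbols, had larger BAP shifts than any member. RR9 (LOC4349747) read 237 and 306 in the control, 116 and 132 with IAA, and 2055 and 1909 with BAP, with log2 shifts of -1.03 and 2.81. RR4 (LOC4325747) read 266 and 308, then 162 and 151, then 1701 and 1493 (-0.81 and 2.41). Of the 6 measured type-A response regulator genes, all 6 met the BAP criterion and these 2 the IAA criterion (5.19% and 6.70% among all tested probe sets). In limma RR1, RR2, RR4, RR6 and RR9 rose with BAP, and RR4 and RR9 fell with IAA, with medians of 2.39 and -0.25. The backgrounds were 0.210% called higher with BAP and 0.219% called lower with IAA. The IAA calls of RR4 and RR9 were lost with dim probe sets kept (limma adjusted p = 0.0993 and 0.0835) or a constant prior spread (0.142 and 0.11). RR9 lost its IAA call without control array 2 or either IAA array (limma adjusted p = 0.0534 to 0.131), and RR4 when any of the 4 control and IAA arrays was left out (0.112 to 0.251). RR6 read 559 and 659 in the control and 3309 and 3117 with BAP, and its IAA arrays of 506 and 492 lay below the control at -0.28 (limma adjusted p = 0.422).

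The model that tests each probe set called few members. Over the whole table it called 217 probe sets higher and 75 lower with IAA, and without rescaling between arrays 245 higher and 261 lower. With BAP it called 72 higher and 22 lower. In limma 8 of the 107 were lower with IAA (7.48%, against a background of 0.219%) and 14 were higher with BAP (13.1%, against 0.210%). Since the rule used the same arrays in the same comparisons, nothing is read from these shares. Only LOC4350138, LOC4339516, LOC4348669 and LOC4341221 were called in both comparisons. LOC4341221 read 829.8 and 869 in the control, 558 and 521 with IAA, and 1634 and 1445 with BAP, with shifts of -0.64 and 0.84. LOC4334521, LOC4334841, LOC4344496 and LOC4347346 were called with IAA alone. The 10 called with BAP alone included LOC4341925, LOC4349585, CKX3 and CIN1, and the difference between the hormones was not tested for them. CIN1 lost its call without control array 1 (limma adjusted p = 0.0741) or BAP array 2 (0.0625). Of the 8 calls with IAA, 0 held in every fit that left out 1 array, and without control array 1 none of the 8 did. Of the 14 calls with BAP, 1 held in every such fit, that of LOC4339516.

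The members' replicate arrays lay farther apart with IAA than those of all tested probe sets. The rule chose the members by these same values, so nothing is read from this difference. The median gap between the 2 IAA arrays was 0.29 on the log2 scale for members and 0.19 over all tested probe sets, and it exceeded 0.5 in 24 members (22.4%, against 14.1%). Between the control arrays the median gap was 0.16 for members and 0.14 over all, and between the BAP arrays 0.19 and 0.21. Neither array of a pair was regularly the higher one. Members were higher on BAP array 2 in 56 cases and on BAP array 1 in 51, and higher on IAA array 2 in 55 and on IAA array 1 in 52. The mean control intensity of members ran from 9.94 to 2060.2, with quartiles of 47.8, 120.5 and 278, against 28.1, 112 and 394 over all tested probe sets. Intensities depend on the probes, so these levels do not rank the genes.

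Leaving out 1 array at a time and applying the same rule to the other 5 kept between 76 and 90 of the 107 members. The rule then admitted 106 to 171 probe sets. With any 1 array left out, 36 members met the rule throughout, EXPB7, GRXC10, PHT1-3 and EXPA8 among them, as did 14 of the 15 leading members. Groups that did not overlap on 6 arrays could not overlap on 5, so that part of the rule could not fail. Members with large shifts, such as the leading 15, were therefore the likeliest to pass. No member failed in more than 4 of the 6 cases. Under all 3 scalings of the arrays 86 members met it, and all 9 members with a symbol were among them. With a pseudocount of 64, 46 members met the rule. Of those with a symbol, only EXPB7, EXPA8, GRXC10 and CIN1 did, and CKX3, LOGL6, PHT1-3, BGLU12 and PUT1 did not.

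Further probe sets of member genes gave measurements that did not enter the choice of these genes. Of 13 member genes, 14 other probe sets were on the array, and 8 of these were bright enough. The IAA shift was below 0 in all 8, against 51.3% of tested probe sets, and the BAP shift was above 0 in 6, against 47.9%. They were measured on the same arrays and can share sequence with the member, so they are not independent samples. The BAP criterion was met by 5 and the IAA criterion by 2, and none met both, since those that did are members. LOC9271754 had a second probe set at 146 and 189 in the control, 144 and 131 with IAA, and 471 and 303 with BAP (-0.25 and 1.11). That of LOC4351769 read 56.1 and 74.6, then 31.1 and 57.5, then 119 and 126 (-0.46 and 0.78), and its IAA array 2 lay above the lower control array. Second probe sets of LOC4327679 (-0.28 and 0.67) and LOC4348959 (-0.29 and 0.59) also ran in the members' directions. The exceptions with BAP were PHT1-3 and LOC9266983, whose second probe set stood at -0.86 with IAA and -0.14 with BAP. These loci were named after their values were seen. A pair of genes had 2 member probe sets each, LOC4342930 (-0.62 and 0.82 in 1, -0.70 and 0.60 in the other) and LOC4342532 (-0.51 and 0.64, -0.58 and 0.44).

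Position was another property the rule did not use. All 73 member genes could be placed in the gene order of a japonica reference assembly, among 16454 tested genes. In 4 pairs, at most 5 genes lay between a member gene and another. Of the 422 tested genes within 6 places of a member gene, 8 were themselves member genes (1.9%), against 0.444% of tested genes. These 8 are the genes of the 4 pairs, each pair counted from both ends, and no test of clustering was made. LOC4351675 and LOC4351676 were immediate neighbours. The first read 1253 and 1167 in the control, 942 and 829 with IAA, and 1793 and 1745 with BAP (-0.45 and 0.54), and the second 552 and 579.6, then 431 and 365, then 1049 and 799 (-0.50 and 0.68). LOC4346144, described above, adjoined LOC4346145, which read 77.4 and 87.7 in the control, 44.1 and 60.8 with IAA, and 144 and 96.9 with BAP (-0.53 and 0.45). In both adjacent pairs the neighbours lay on the same side of the control with each hormone, which membership fixes. With 2 genes between them came LOC4337689 and LOC4337686 (-0.66 and 0.48 for the latter), and with 3 genes between them LOC4341168 and LOC4341171 (-0.94 and 0.44, and -0.53 and 0.44). The probe sets of LOC4351676 and LOC4351675, Os.26802.1.S1_at and Os.26802.2.S1_at, have nearly the same ID. Those of LOC4346144 and LOC4341171 carry a suffix for probes that can match several sequences. Neighbours may thus share signal, and whether neighbouring members share probe matches was not tested.

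Genes of the auxin response were read beside the members. Over all tested probe sets, limma called 0.633% higher and 0.219% lower with IAA, and 0.210% higher and 0.0642% lower with BAP. Of 25 measured Aux/IAA repressor genes, 10 rose and 0 fell with IAA in limma and 0 were called with BAP, with medians of 0.46 and 0.03. IAA20, IAA9 and IAA1 had the smallest p of them. Of 9 GH3 genes, which encode enzymes that conjugate auxin or related acids, 4 rose and 0 fell with IAA and 0 were called with BAP: GH3.4, GH3.2, GH3-8 and, named after its values were seen, GH3.1. Of 16 auxin response factor genes 2 rose with IAA, ARF10 and arf1, and 0 with BAP. GH3.1, ARF10 and arf1 each lost the call without control array 1 (limma adjusted p = 0.159, 0.0855 and 0.211) or IAA array 1 (0.203, 0.0636 and 0.121), arf1 and GH3.1 also without control array 2 (0.125 and 0.171), and GH3.1 without IAA array 2 (0.0514). No gene of these 3 lists met both criteria. The 4 type-B response regulator genes and the 7 genes of cytokinin receptors and phosphotransfer proteins held 0 calls with either hormone, and their medians lay between -0.08 and 0.22. HK4, a cytokinin receptor gene, read 0.93 with BAP (SE 0.20, limma adjusted p = 0.14), and was the 1 gene of the latter list to meet the BAP criterion. Without rescaling between arrays HK4 was called higher with BAP (limma adjusted p = 0.0323). The 6 genes of auxin synthesis and transport and the 4 GATA factor genes also held 0 calls. Among 16 genes of nitrate and ammonium uptake and assimilation, 3 met the IAA criterion, 0 met the BAP criterion and 0 were called, with medians of 0.08 and -0.27. Without rescaling between arrays, AMT3-3 of this list was called lower with IAA (limma adjusted p = 0.0285). Over all tested probe sets 6.70% met the IAA criterion and 5.19% the BAP criterion. Both measured peroxidase genes fell with IAA, PRX112 by 1.15 (SE 0.14, limma adjusted p = 0.00761) and the gene listed as peroxidase by 0.87 (SE 0.13, limma adjusted p = 0.0203), and neither was called with BAP. PRX112 lost its call without control array 1 (0.0942), and the other gene with any 1 of the control and IAA arrays left out (0.0552 to 0.187). The median over all tested probe sets was -0.01 in both comparisons.

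Markers of seedling organs were examined beside the members, since whole seedlings were sampled and fewer cells of a type cannot be told apart from less RNA per cell. Of 9 root markers, 7 had log2 values below 0 with IAA and 6 with BAP. The others lay above 0, QHB among them at 0.69 with IAA and 0.45 with BAP, neither called in limma. The IAA criterion was met by 3 and the BAP criterion by 1 (6.70% and 5.19% among all tested probe sets). In limma 1 fell with IAA and 3 fell with BAP, where 0.219% and 0.0642% of tested probe sets were called lower. Without rescaling between arrays, IRT1 and NRAMP5 were also called lower with BAP (limma adjusted p = 0.00664 and 0.0289). The count with BAP thus depends on the scaling. The summed intensity of the 9 root markers was 6361 to 6460.3 on the control arrays, 4426 to 4778 with IAA and 3200.2 to 3235 with BAP. In this sum both hormones lay under the control. The members lay over it with BAP because the rule required it, so no contrast is drawn. Nrat1, an aluminium transporter gene of the root, read 235 and 239 in the control, 119 and 131 with IAA, and 74.7 and 74.3 with BAP. It fell with IAA by 0.85 (SE 0.15, limma adjusted p = 0.0348) and with BAP by 1.49 (SE 0.15, limma adjusted p = 0.00621). The silicon transporter genes Lsi1 and Lsi2 fell with BAP by 0.89 and 1.67 (limma adjusted p = 0.00844 and 0.0128). With dim probe sets kept, the IAA call of Nrat1 and the calls of Lsi1 and Lsi2 were lost (limma adjusted p = 0.117, 0.0959 and 0.117). With a constant prior spread the same calls were lost (0.0935, 0.216 and 0.16). Nrat1 lost its IAA call with any 1 of the control and IAA arrays left out (limma adjusted p = 0.0943 to 0.288) and its BAP call without control array 1 or 2 or BAP array 2 (0.0625 to 0.0818). Lsi1 lost its call with any 1 of the control and BAP arrays left out (0.0564 to 0.129), and Lsi2 without either control array or BAP array 2 (0.0548 to 0.124).

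Of 7 measured green tissue markers 0 were called with either hormone. Their medians were 0.05 with IAA and 0.00 with BAP, and their summed intensity ran from 31957 to 32959 over the 6 arrays. None of the 8 measured seed markers was called either. Their summed intensity differed between replicates, at 6531 and 1957 in the control, 6846 and 4407 with IAA, and 1848 and 6401 with BAP, so no group stood apart. Of the markers on the array, 0 of 9 root, 1 of 8 green and 3 of 11 seed markers had a mean deposited intensity under 10. The part of these marker levels in the members' shifts was not tested.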

How the data were processed

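RNA of 6 samples was hybridised to Affymetrix rice arrays, 1 array each, with 2 arrays in each of 3 groups taken from the sample titles. The deposited value table holds intensities on a linear scale, 1 for each probe set on each array. How the authors summarised and scaled these intensities is not given in the sources used here. Run day and fluidics module came from the instrument files, per the file headers, and entered no fit.

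The 187 array control probe sets were dropped. The log2 of intensity + 16 was quantile normalized, and probe sets were kept where the mean over 6 arrays was at least 4.7 (an intensity of 9.99), which removed 22938 of 57194 probe sets. Printed intensities have the 16 subtracted again. Group means were fitted to all 6 arrays with limma 3.58.1 in R 4.3.3 (spread following intensity, 3 residual degrees of freedom, median prior degrees of freedom 6.06), two-sided, with a threshold of 0.05 after Benjamini-Hochberg adjustment over 34256 probe sets. The fit was tested on simulated data. Tables were read with Python 3.11.15 and pandas 2.3.3.

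Names came from the platform annotation, updated by gene number through a RefSeq table of a japonica assembly, which also gave gene order. In the lists each gene was represented by its brightest probe set, and genes were found by symbol or synonym. The members and the lists were chosen with earlier results of these data known, and the families of the named members after the members were known. Named are all members with a symbol, the 15 with the largest smaller shift, those nearest each threshold, the RR probe sets left out, other probe sets of these genes and up to 3 genes of each list with the smallest p. Alternatives were other scalings, pseudocounts, floors and thresholds, each array left out, a constant prior spread and the replicate number as a block.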

Additional observations from a re-analysis of the deposited data

How the results depend on the processing

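The number of probe sets that met the rule, 107, was 184 with a pseudocount of 1 and 46 with one of 64, and 196, 56 and 3 with thresholds of 0.3, 0.5 and 1. With each array left out in turn it lay between 106 and 171. It was 129 without rescaling between arrays (97 of them members), 94 with arrays centred on their medians (87 members) and 111 with dim probe sets kept. No log2 shift of a member, of RR4 or RR9 or of a probe set just outside the thresholds changed sign in 2260 comparisons with an alternative. All of these were picked with groups that did not overlap, so leaving out an array could not change a sign. In 226 of the comparisons the shift moved by more than the spread between replicates. The limma calls with IAA, 292, numbered 506 without rescaling, 68 with dim probe sets kept, 93 with a constant prior spread, and between 85 (without control array 1) and 289 with an array left out. Those with BAP, 94, numbered 214 without rescaling (149 higher and 65 lower), 60 with arrays centred on their medians, 14 with dim probe sets kept, 14 with a constant prior spread, and between 13 (without BAP array 2) and 92 with an array left out. Among the named genes, the calls of CIN1, BGLU26, GRXS5, GRXC7, GH3.1, arf1 and both peroxidase genes were lost with dim probe sets kept. The same calls were lost with a constant prior spread, and that of GRXC3 only with dim probe sets kept. The cause of these changes was not tested.

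With the replicate number as a block, 319 probe sets were called with IAA and 95 with BAP. The labels do not say that a number pairs arrays, and same-numbered arrays deviated together at r = 0.0166, 0.0262 and -0.0599 across probe sets, so the pairing has no basis beyond the number. The intensities came without detection calls used here, so values close to the floor of 9.99 cannot be told from background, and with 2 arrays per group a shift near 0.4 lies close to the gaps between replicates.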
